A study of Mus musculus with 4 samples.

Results

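The genes described here encode the nuclear subunits of the oxidative phosphorylation machinery, measured as messenger RNA in cells sorted from mouse tumours as macrophages. They were chosen by symbol, as protein-coding genes whose symbols start with Ndufa, Ndufb, Ndufc, Ndufs, Ndufv, Uqcr, Cox4, Cox5, Cox6, Cox7, Cox8 or Atp5, together with Sdha, Sdhb, Sdhc, Sdhd and Cyc1. The rule took 94 of the 39179 genes in the files. Of these, 85 encode subunits (36 of complex I, 4 of complex II, 9 of complex III, 20 of complex IV and 16 of complex V). The other 9 share the prefixes: the complex I assembly factors Ndufaf1 to Ndufaf8, and Atp5s, an ATP synthase coupling factor grouped with them. The filter on low counts left 91 of the 94, and Cox7b2, Cox8b and Cox8c, isoforms of complex IV known from testis and muscle, had no count in any library.

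Oxidative phosphorylation passes electrons from NADH and succinate through complexes I to IV of the inner mitochondrial membrane to oxygen, and complex V, the ATP synthase, uses the resulting proton gradient to make ATP. The catalytic core of complex IV and parts of complexes I, III and V are encoded by mitochondrial DNA, while the remaining subunits, complex II included, come from nuclear genes spread over many chromosomes. In macrophages, oxidative metabolism is known for its link to the alternatively activated state, and inflammatory activation for a shift towards glycolysis.

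The macrophages came from tumours grown under the skin of FVB mice after injection of MycCaP cells, a mouse prostate cancer line that carries a human MYC transgene, or of MycCaP-BMP4 cells, the same line made to overexpress BMP4, a secreted bone morphogenetic protein. Cells positive for CD45, CD11b and F4/80 and negative for GR1 were sorted, and each tumour type gave 2 libraries. The labels give no age or sex for the mice, no promoter or clone for the BMP4 line and no statement that libraries came from separate animals, so a p-value reflects only how far these samples differ among themselves, possibly for technical reasons. F4/80 appears in the sample titles of the MycCaP-BMP4 group only, although every sample carries an identical cell type label.

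In what follows, 4 values for a gene are those of MycCaP replicates 1 and 2 and then MycCaP-BMP4 replicates 1 and 2. They are in CPM, counts per 1000000 gene counts after TMM scaling, which sets the bulk of genes level between libraries. Fold changes are MycCaP-BMP4 over MycCaP, on the log2 scale with their standard errors, and are called at an adjusted p under 0.05. Libraries held 24967143, 24385036, 24313328 and 23058263 gene counts. At these sizes, before TMM scaling, 3 counts were worth 0.120 to 0.1301 CPM, a limit that covers counting error only. Bmp4 had 4 and 1 counts in the MycCaP libraries and 14136 and 4138 in the MycCaP-BMP4 libraries. MycCaP-BMP4 replicate 1 stood apart in its macrophage markers: all 15 pan-macrophage genes were detected in every library, but the median of their differences from the mean of the MycCaP libraries was -2.35 there and -0.42 in MycCaP-BMP4 replicate 2. The 13 genes of the tumour epithelium summed to 58.3, 62.2, 462 and 179 CPM, although Epcam stayed at or below 0.615 CPM and Krt5 had no count. Cldn3 alone was at 25.8, 27.6, 359 and 126 CPM. Of the 8 tested, 6 lay higher and 1 lower without overlap, with a median of 1.8. The lower gene was Cdh1, at 5.16, 4.05, 0.326 and 1.93 CPM, and Krt8 overlapped. Markers of T and NK cells stood lower in both MycCaP-BMP4 libraries: the 8 genes summed to 57.4, 45.7, 4.09 and 8.92 CPM, with a median log2 fold change of -3.17, 7 of them lower without overlap and at an unadjusted p under 0.05, and none past the adjusted threshold. Medians were also negative for the 6 dendritic cell genes (-1.155, 5 lower without overlap) and the 5 endothelial genes (-0.805, 2 lower). So was the median of the 6 proliferation genes (-0.582, 4 lower). The 6 fibroblast genes had a median of 0.008 (2 higher, none lower). The 4 tested neutrophil genes had 0.864 (none higher, 1 lower) and the 5 tested muscle genes 1.161 (3 higher, 1 lower). Fabp4, the only fat gene tested, was higher at 62.5, 58.4, 224 and 113 CPM. Of all genes, 28.9% lay higher and 29.7% lower without overlap, and 6.76% were lower at an unadjusted p under 0.05. The part of these differences in cell content in the results below was not tested, and in bulk RNA fewer cells of a type and less RNA per cell cannot be told apart.

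Most of the nuclear subunit genes lay close to the same level in both groups. The median log2 fold change of the 91 genes tested was -0.07, against -0.03 for all 14075 genes tested, and 84.6% of them lay within 1.5-fold of equality, compared with 55.1% of all genes. A fitted difference over 2-fold was seen in 7 of 91 genes (7.69%), where 25.4% of all genes had one. All 5 of those that were lower were low-abundance isoforms of complex IV (Cox4i2, Ndufa4l2, Cox6a2, Cox6b2 and Cox7a1), and the higher ones were Ndufaf4, a complex I assembly factor, and Ndufb2, a subunit of the membrane arm of complex I. The comparison with all genes was not matched for abundance. From 1565 to 1738 of the 14075 genes stood under 1 CPM in a library, and 4 to 7 of the 94 genes here. The part of abundance in these shares was not tested.

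None of the 91 genes passed edgeR's quasi-likelihood test in either direction, and the same test called 0.0% of all genes. At an unadjusted p under 0.05 there were 2 higher genes (Ndufaf4 and Ndufb2), where 12.3% of all genes stood, and 2 lower genes (Cox4i2 and Ndufa4l2), where 6.76% of all genes stood. DESeq2 called Ndufaf4 higher (background 6.83%) and Cox4i2 lower (background 3.01%), and limma-voom called none (background 0.0% in each direction), with 1 higher and 2 lower at an unadjusted p under 0.05. Without MycCaP-BMP4 replicate 1, edgeR called Ndufaf4 higher (background 4.48%) and Cox4i2 and Ndufa4l2 lower (background 2.63%). Without MycCaP-BMP4 replicate 2 it called 8 genes higher (background 18.5%) and 4 lower (background 20.2%), those 3 among them. With 1 library left in a group, such a fit takes that group's spread from the other and does not show whether a difference repeats.

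The groups did not overlap for 36 of the genes, with 11 above and 25 below in MycCaP-BMP4 libraries, while 55 overlapped. The corresponding shares over all genes were 28.9% and 29.7%, so a smaller share of these genes than of all genes separated upwards, and a similar share separated downwards. With a library left out, a comparison that can only add to these counts, the higher genes numbered 34 without MycCaP replicate 1, 17 without MycCaP replicate 2 and 40 without MycCaP-BMP4 replicate 2, and the lower genes 49 without MycCaP replicate 2 and 50 without MycCaP-BMP4 replicate 1. The MycCaP-BMP4 libraries did not move together: 30 genes lay above the MycCaP mean in replicate 1 and below it in replicate 2, and none the other way round, while 41 lay below it and 20 above it in both. All directions here are relative to the bulk of the library. For the settings with a library left out and the scaling below, no share of all genes is given. Counts under them therefore do not set these genes apart from other genes. When libraries were scaled on the pan-macrophage genes in place of all genes, the median of all genes moved from -0.03 to 1.58, that of the 82 subunits tested moved from -0.10 to 1.63, and 50 of the 91 genes were higher without overlap and 1, Cox4i2, lower.

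**Figure D1:**
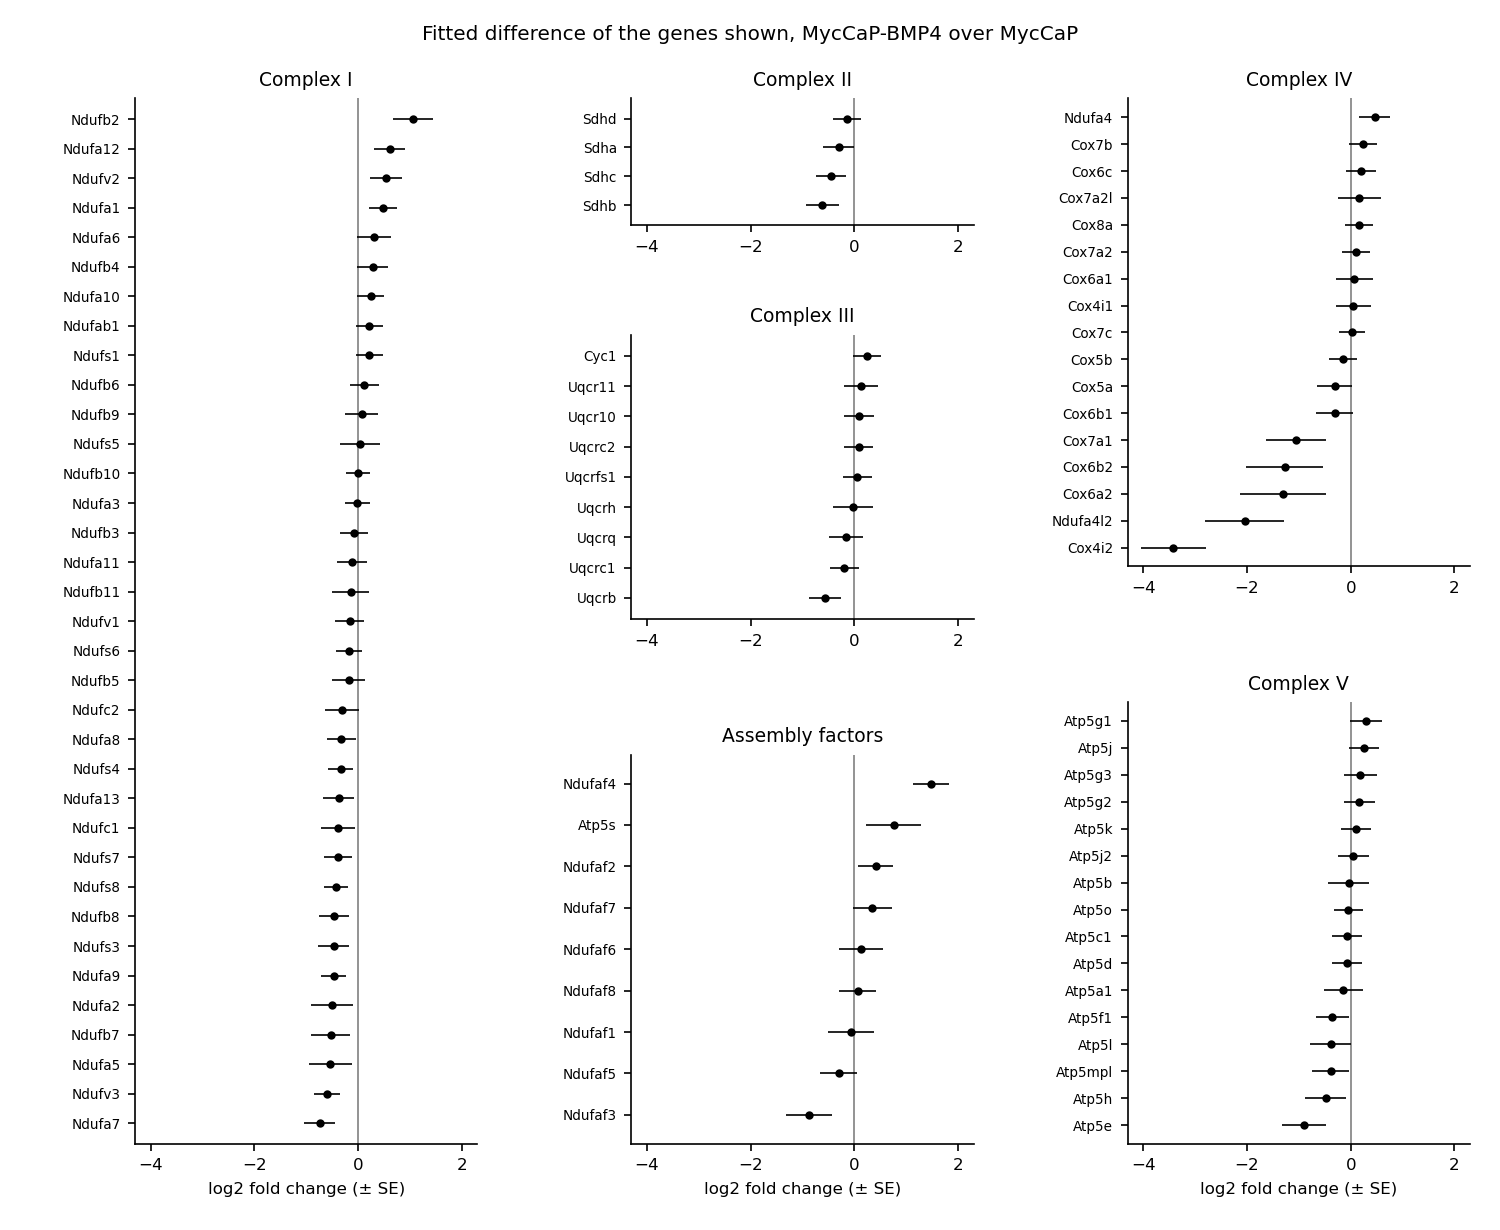
Fitted log2 fold change (MycCaP-BMP4 over MycCaP, TMM scale) of tested genes, by complex, with bars of 1 standard error. Of the 91 genes tested, 84.6% lie within 1.5-fold of the vertical line at equality, Cox4i2 at -3.42 and Ndufa4l2 at -2.05 stand out on the left, and Ndufaf4 at 1.47 and Ndufb2 at 1.06 on the right.

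The widest differences were in the regulatory isoforms of complex IV, cytochrome c oxidase, which hands electrons to oxygen. Cox4i2 (ENSMUSG00000009876, chromosome 2, 152754173 to 152765037 on GRCm38), the alternative form of the subunit that Cox4i1 supplies in most cells, stood at 5.86 and 4.69 CPM in MycCaP libraries and at 0.326 and 0.659 CPM in MycCaP-BMP4 libraries, from 134, 111, 9 and 15 counts. Both MycCaP-BMP4 libraries were far below both MycCaP libraries. Its log2 fold change was -3.42 ± 0.63 with an adjusted p of 0.129, and it was lower without overlap under every scaling tried, with -2.13 on the macrophage scale. Cox4i1 itself was at 467, 409, 500 and 407 CPM, overlapping between groups (0.05 ± 0.33). Per transcript length, Cox4i2 made up 1.29% and 1.18% of the Cox4 messages in MycCaP libraries and 0.0679% and 0.169% in MycCaP-BMP4 libraries.

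Ndufa4l2 (ENSMUSG00000040280, chromosome 10, 127514967 to 127517154) encodes a relative of Ndufa4, a protein once placed in complex I and now in complex IV. It stood at 6.17, 7.56, 2.68 and 0.615 CPM, lower in both MycCaP-BMP4 libraries and lowest in replicate 2. The log2 fold change was -2.05 ± 0.76 with an adjusted p of 0.238, and on the macrophage scale it was -0.004 with overlapping groups. Ndufa4 lay on the opposite side, at 145, 118, 207 and 156 CPM, higher in both MycCaP-BMP4 libraries (0.46 ± 0.30, adjusted p = 0.440). Ndufa4l2 accounted for 2.71% and 4.0% of this pair per transcript length in MycCaP libraries and for 0.837% and 0.257% in MycCaP-BMP4 libraries.

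Cox4i2 and Ndufa4l2 are known from other tissues as genes induced under low oxygen and as genes of the pericytes around small vessels, so both kinds of marker were read in the same libraries, with lists added after these genes were seen. Of 9 genes of the hypoxia response, 7 were lower without overlap and none higher, with a median of -0.98. The shares of all genes to set beside either list were 29.7% lower and 28.9% higher without overlap. In edgeR's test 0 of the 9 passed. At an unadjusted p under 0.05, 6 were lower and none higher, where 6.76% of all genes stood lower. Egln3, an oxygen-sensing prolyl hydroxylase, was at 40.5, 34.2, 2.93 and 11.2 CPM, and Slc2a1, the glucose transporter, at 278, 226, 87.2 and 122 CPM. Ldha, lactate dehydrogenase, overlapped at 1594, 1524, 1880 and 1342 CPM. Of the 8 mural cell genes tested, 4 lay lower and 2 higher, with a median of -0.83. Vtn, vitronectin, which pericytes are known to express, was at 9.93 and 14.8 CPM in MycCaP libraries and had no count in MycCaP-BMP4 libraries (adjusted p = 0.0891), and Kcnj8, a potassium channel subunit, was lower at 0.569, 2.36, 0.290 and 0.0879 CPM. Pdgfrb, a receptor on pericytes, was at 6.30, 13.6, 5.68 and 4.35 CPM, while Cspg4, also a pericyte marker, was higher at 1.18, 1.69, 14.6 and 12.6 CPM. Abcc9, the partner subunit of Kcnj8, was higher too, at 6.21, 9.84, 41.4 and 20.6 CPM. With these unlike directions, the summed mural genes spanned 38.4 to 68.8 CPM in MycCaP and 46.3 to 77.8 CPM in MycCaP-BMP4 libraries. The part of either list in the 2 isoforms was not tested.

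The other tissue-type isoforms of complex IV also had negative fold changes, and Cox6b2 and Cox6a2 were close to the detection limit. Cox7a1, the heart and muscle form of subunit VIIa, was at 7.44, 3.84, 1.92 and 3.52 CPM (-1.05 ± 0.59, adjusted p = 0.376), with replicates 2 of the groups nearly level. Cox6b2, known from testis, was at 1.14, 0.844, 0.543 and 0.264 CPM (-1.27 ± 0.74), and Cox6a2, the muscle form of subunit VIa, at 0.612, 0.718, 0.145 and 0.395 CPM (-1.31 ± 0.82), from at most 26 and 17 counts in a library. On the macrophage scale all 3 overlapped between groups. Of 15 skeletal and heart muscle genes, 12 or 13 were under 1 CPM in every library and only 5 could be tested.

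The widely expressed complex IV subunits showed none of this. Without the 5 low isoforms, the 12 remaining genes had a median log2 fold change of 0.09, from -0.31 for Cox6b1 to 0.46 for Ndufa4. Ndufa4 alone had groups that did not overlap, beside 28.9% higher and 29.7% lower of all genes. Cox6a1 was at 276, 188, 283 and 204 CPM, Cox6b1 at 314, 186, 214 and 190 CPM and Cox7a2 at 124, 107, 138 and 111 CPM. In each of these genes replicate 1 exceeded replicate 2 within both groups, and the groups overlapped. Cox5a, at 197, 120, 116 and 140 CPM, and Cox5b, at 123, 91.7, 94.9 and 98.4 CPM, which neighbour the catalytic core, overlapped as well. Cox7a2l, known for joining complexes III and IV into supercomplexes, was at 264, 164, 305 and 176 CPM, and Cox8a, Cox7b and Cox6c had fold changes from 0.16 to 0.24.

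**Figure D2:**
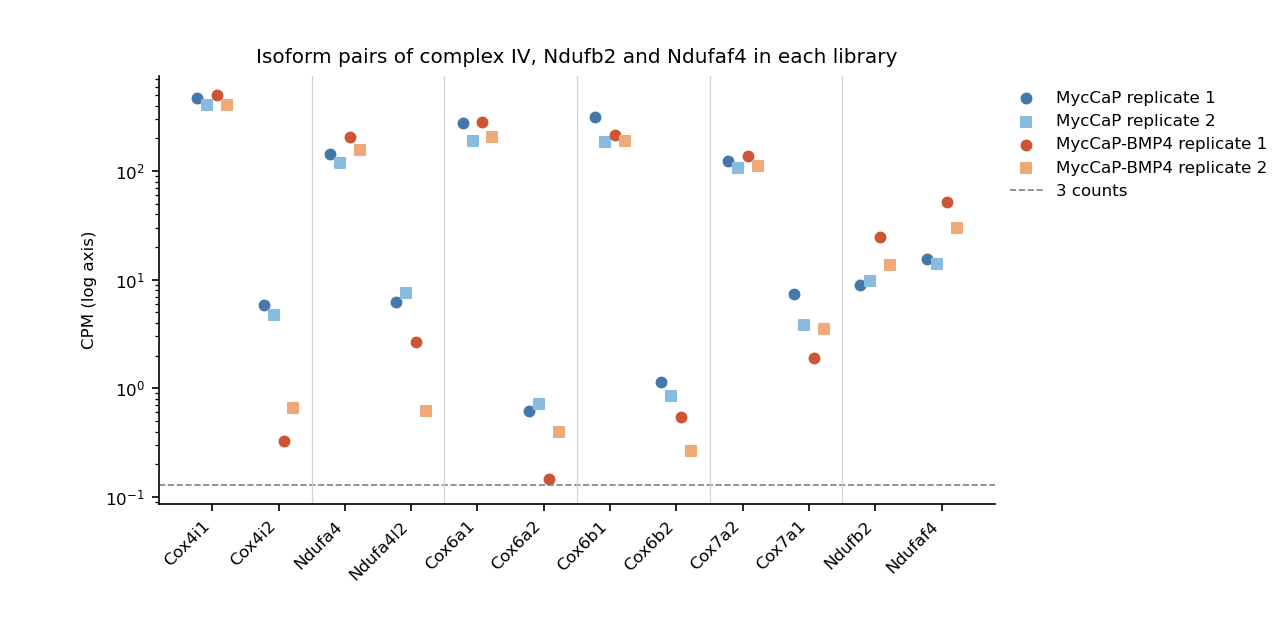
CPM of the complex IV isoform pairs, Ndufb2 and Ndufaf4 in each library on a log axis. The dashed line is the highest of the libraries' values of 3 counts, taken before TMM scaling, while the points are TMM-scaled. The main forms (Cox4i1, Ndufa4, Cox6a1, Cox6b1 and Cox7a2) hold similar levels in the 4 libraries, the 5 minor forms are lower in both MycCaP-BMP4 libraries, and Ndufb2 and Ndufaf4 are higher in both.

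Complex I, which takes electrons from NADH, had a median log2 fold change of -0.15 over its 36 subunits, all tested. Relative to the MycCaP mean the median subunit stood at 0.002 in MycCaP-BMP4 replicate 1 and at -0.30 in replicate 2. Groups did not overlap for 7 higher and 9 lower of the 36 genes, beside 28.9% higher and 29.7% lower of all genes. The most separated subunit was Ndufb2 (ENSMUSG00000002416, chromosome 6, 39592574 to 39603382), at 8.88, 9.67, 24.95 and 13.8 CPM. Its difference was 1.06 ± 0.39 with an adjusted p of 0.238. The gap between its MycCaP-BMP4 libraries was wider than the gap from replicate 2 to the MycCaP libraries.

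Among the electron-carrying subunits of complex I, the directions differed. Ndufv2, an iron-sulfur protein of the NADH-binding module, was higher in both MycCaP-BMP4 libraries at 124, 144, 226 and 164 CPM (0.54 ± 0.30, adjusted p = 0.382). Its partner Ndufv1, which binds NADH and flavin, overlapped at 124, 95.7, 108 and 88.2 CPM, and Ndufs1, the largest iron-sulfur subunit, was slightly higher at 96.5, 92.8, 122 and 97.4 CPM (0.21 ± 0.26). Ndufs8, an iron-sulfur subunit of the arm that leads to quinone, was lower in both MycCaP-BMP4 libraries at 88.1, 80.4, 61.2 and 64.0 CPM (-0.43 ± 0.24, adjusted p = 0.373), and so were Ndufs7 (62.5, 45.6, 43.6 and 39.3 CPM) and Ndufs3 (106, 68.4, 67.1 and 59.1 CPM). About the Ndufs3 values, 50.1% of the 36-base stretches of its principal transcript also occur in another gene, and reads that fit several places were not counted.

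The accessory subunits of complex I, which surround and stabilise the core, held both the lowest fold changes and most of the higher ones. Ndufa7 was at 101, 64.0, 48.4 and 50.2 CPM (-0.74 ± 0.30, adjusted p = 0.266), Ndufv3 at 72.3, 59.4, 39.6 and 47.4 CPM (-0.60 ± 0.26) and Ndufa9, which sits near the quinone site, at 104, 96.4, 69.7 and 74.6 CPM (-0.47 ± 0.24). In these 3 genes both MycCaP-BMP4 libraries lay below both MycCaP libraries. Ndufa12 was at 27.1, 41.7, 56.2 and 49.2 CPM (0.61 ± 0.30) and Ndufa1 at 63.4, 65.5, 106 and 74.6 CPM (0.48 ± 0.28), both higher without overlap. Ndufa10 (79.6, 90.6, 110 and 91.6 CPM) and Ndufb4 (12.1, 13.8, 16.6 and 14.8 CPM) were also higher, by margins in replicate 2 of about 1 CPM. The other 3 lower genes without overlap, Ndufa13, Ndufb8 and Ndufs4, had fold changes of -0.37, -0.47 and -0.34. The 20 subunits with overlap ranged from -0.54 (Ndufa5) to 0.31 (Ndufa6).

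Complex II, succinate dehydrogenase, which also works in the tricarboxylic acid cycle, was the complex in which all subunits lay on the same side on the TMM scale. None of its 4 genes overlapped between the groups, each was lower in MycCaP-BMP4 libraries (median log2 fold change -0.375), and none passed the test. The share of all genes that lay lower without overlap was 29.7%. Sdha, the flavoprotein that oxidises succinate, was at 289, 266, 198 and 252 CPM (-0.30 ± 0.31). Sdhb, the iron-sulfur subunit, was at 238, 161, 125 and 135 CPM (-0.62 ± 0.31, adjusted p = 0.342), and the gap between its MycCaP libraries was wider than the gap from the lower of them to the MycCaP-BMP4 libraries. The membrane anchors Sdhc, at 170, 141, 99.6 and 128 CPM (-0.45 ± 0.29), and Sdhd, at 172, 150, 148 and 144 CPM (-0.14 ± 0.27), completed the set. Sdha and Sdhc were lower in MycCaP-BMP4 replicate 1 than in replicate 2, the order of the macrophage markers, while Sdhb and Sdhd were nearly level, and the part of macrophage content in this was not tested. The separation depends on the scale: with DESeq2's size factors or library size alone Sdhd overlapped, with a fold change of 0.03 for the latter, and on the macrophage scale Sdha, Sdhc and Sdhd lay higher in both MycCaP-BMP4 libraries, although the median of the complex, 1.15, was still below the 1.58 of all genes.

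Complex III, which passes electrons from ubiquinol to cytochrome c, was flat, with a median log2 fold change of 0.055 over 9 genes. Groups overlapped for 6 of them, with 1 higher and 2 lower, beside 28.9% higher and 29.7% lower of all genes. Cyc1, cytochrome c1, was at 101, 102, 136 and 105 CPM (0.25 ± 0.27), just above in replicate 2. The core proteins Uqcrc1, at 218, 206, 190 and 182 CPM (-0.19 ± 0.27), and Uqcrc2, at 142, 168, 178 and 150 CPM (0.08 ± 0.28), and the Rieske iron-sulfur protein Uqcrfs1, at 125, 102, 132 and 104 CPM (0.06 ± 0.28), differed little. Uqcrb, which helps form the quinone site, was the lowest at 153, 100, 81.6 and 89.9 CPM (-0.56 ± 0.31), and 54.0% of the 36-base stretches of its transcript are shared with another gene. Uqcr10, Uqcr11, Uqcrh and Uqcrq had fold changes from -0.16 to 0.13, all with overlap.

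Complex V was likewise flat, with a median of -0.06 over 16 genes. Groups overlapped for 13 of them, with none higher and 3 lower, beside 28.9% higher and 29.7% lower of all genes. The catalytic subunits of complex V were the most abundant messages of the whole set in CPM. Atp5b, the beta subunit, was at 1127, 1137, 1204 and 999 CPM (-0.04 ± 0.39) and Atp5a1, the alpha subunit, at 1042, 907, 888 and 877 CPM (-0.14 ± 0.37). Atp5c1, the rotating gamma subunit, was at 233, 251.3, 245 and 216 CPM (-0.07 ± 0.29). These 3 genes differed between groups by less than their standard errors. The small epsilon subunit Atp5e had the lowest fold change of the complex, at 308, 142, 122 and 118 CPM (-0.91 ± 0.42, adjusted p = 0.313), where MycCaP replicate 1 stood high and the other 3 libraries lay together. Atp5f1, the stator subunit b, was at 378, 286, 258 and 261 CPM (-0.36 ± 0.32). The 13 subunits with overlap ranged from -0.49 (Atp5h) to 0.29 (Atp5g1).

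The 3 genes of the membrane ring through which protons pass encode the same mature protein, and none of them separated the groups. Atp5g3 was at 285, 224, 322 and 258 CPM (0.19 ± 0.32), Atp5g1 at 73.5, 71.9, 109 and 68.5 CPM (0.29 ± 0.31) and Atp5g2 at 31.5, 47.7, 47.2 and 41.7 CPM (0.17 ± 0.29). For Atp5g2, 87.6% of the 36-base stretches of the transcript recur elsewhere, and for Atp5l, subunit g, 85.3%, so counts of unique reads can understate both genes. Atp5h (314, 168, 196 and 149 CPM) and Atp5mpl (155, 88.9, 103 and 83.7 CPM) had fold changes of -0.49 ± 0.40 and -0.39 ± 0.35, and Atp5j, coupling factor 6, was at 85.5, 118, 132 and 110 CPM (0.25 ± 0.29).

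Assembly factors build complexes without staying in them, and the coupling factor Atp5s is grouped with them here. Of the 9 genes in this group, Ndufaf4 had the smallest p among those that were higher. Ndufaf4 (ENSMUSG00000028261, chromosome 4, 24898083 to 24905001), which acts in early complex I assembly, was at 15.5, 13.8, 51.4 and 30.0 CPM, from 354, 327, 1418 and 682 counts. The MycCaP libraries agreed within 2 CPM, and both MycCaP-BMP4 libraries lay well above them, replicate 1 highest. The log2 fold change was 1.47 ± 0.35 with an adjusted p of 0.148, and it was higher without overlap under every scaling tried. Its neighbours in the same process went in unlike directions. Ndufaf3, which acts with Ndufaf4, was lower at 13.9, 9.5, 4.78 and 8.0 CPM (-0.87 ± 0.44, adjusted p = 0.336), and Ndufaf1 overlapped at 6.21, 8.02, 8.54 and 5.10 CPM. Ndufaf2 was higher without overlap at 9.45, 9.29, 14.0 and 10.9 CPM (0.41 ± 0.34), Ndufaf5 lower at 11.1, 8.87, 8.73 and 7.47 CPM, and Ndufaf6, Ndufaf7 and Ndufaf8 overlapped. Atp5s, an ATP synthase coupling factor, was at 2.84, 4.10, 7.75 and 4.0 CPM. Of 6 further complex I assembly factors outside the symbol rule, 1 lay higher and 3 lower, with a median of -0.07. The higher one, Ecsit, was at 14.3, 12.4, 32.8 and 20.4 CPM (0.997 ± 0.34, adjusted p = 0.218). Of 30 tested factors of complexes II to V 6 lay higher and 9 lower, with a median of 0.05. The shares of all genes to set beside both lists were 28.9% higher and 29.7% lower without overlap. None of the factors in this paragraph passed the test.

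Levels between genes were compared per kilobase, once over the union of exons and once over the principal transcript, and an order is given where both lengths agreed on it. In complex I, Ndufa2, a small accessory subunit, was highest on average at 336, 161, 186 and 163 CPM per kilobase of principal transcript, with MycCaP replicate 1 far above the rest, so that its neighbour Ndufa1 (151, 156, 252 and 178) was higher in both MycCaP-BMP4 libraries. Ndufb2 was lowest at 2.03, 2.21, 5.71 and 3.15 CPM per kilobase, on an annotated principal transcript of 4371 bases. In complex II Sdhc was lowest at 53.5, 44.6, 31.4 and 40.5 CPM per kilobase, below Sdha in every library. Among the assembly factors Ndufaf8 was highest, with a mean of 22.4 CPM per kilobase, and Atp5s lowest, with 2.92. On this scale the assembly factors lay below most subunits of complexes I, III and V, and the 5 minor isoforms of complex IV lay within or below the range of the assembly factors.

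**Figure D3:**
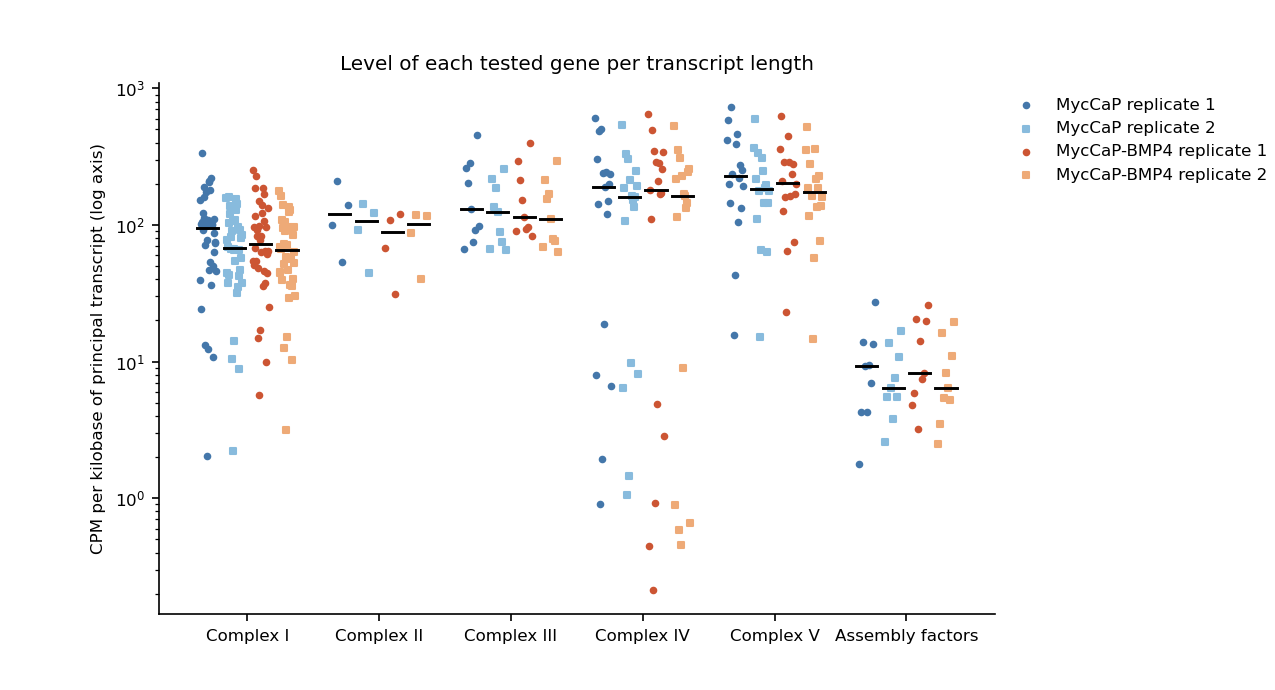
CPM per kilobase of principal transcript (log axis) of each tested gene in each library, grouped by complex, with the median as a black bar. The medians of the complexes differ little between libraries and lie far above those of the assembly factors, and the 5 minor isoforms of complex IV form a separate low cloud.

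Gaps between replicates and fold changes between groups had medians of similar size, but they are not like measures. A gap is between 2 single libraries, while a fold change is fitted to 2 libraries per group. The values therefore do not show which source of difference is larger. MycCaP replicate 1 exceeded replicate 2 in 71 of the 91 genes and MycCaP-BMP4 replicate 1 exceeded replicate 2 in 74. The median absolute gap was 0.31 between MycCaP libraries and 0.30 between MycCaP-BMP4 libraries, while the median absolute fold change between groups was 0.25. Over all genes these values were 0.23, 0.50 and 0.51. The MycCaP gap was tied to transcript length: the 32 genes with principal transcripts under 700 bases had a median gap of 0.48, with 27 higher in replicate 1, and the 22 of at least 1500 bases had 0.10, with 15 higher. Over the 91 genes Pearson's r of this gap with log2 length was -0.33, a description across genes that share the same libraries. The fold change between groups went with length as well, with r = 0.26 and medians of -0.145 for the short and 0.055 for the long genes, and the part of length in the group comparison was not tested. Together the 94 genes took 1.17%, 1.00%, 1.33% and 0.984% of gene counts.

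Among the other lists of mitochondrial genes, the mitochondrially encoded subunits had the median farthest from 0. The 12 that were tested, partners of the nuclear subunits in complexes I, III, IV and V, had a median log2 fold change of 1.49. Of these, 8 were higher in both MycCaP-BMP4 libraries, none lower and none past the test, beside 28.9% higher and 29.7% lower of all genes. The 13 listed genes took 0.546%, 1.49%, 3.10% and 2.64% of gene counts, so the MycCaP libraries differed between themselves more widely than the MycCaP-BMP4 libraries did. Their counts were uneven. While mt-Co1 was at 3050, 6386, 8397 and 8859 CPM, mt-Co2 was at 13.6, 6.63, 7.35 and 12.5 CPM. The values of mt-Nd3 were 0.481, 0.253, 0.398 and 0.527 CPM, and those of mt-Atp8 0.394, 0.296, 33.4 and 1.41 CPM. The libraries were made from polyadenylated RNA. On the same scale the medians of the nuclear subunits of complexes I, III, IV and V lay between -0.15 and 0.055.

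Of 75 mitochondrial ribosomal proteins tested, 21 lay higher and 8 lower (median 0.06), and of 13 tricarboxylic acid cycle enzymes 4 lay higher and 2 lower (median 0.10). Mdh2, mitochondrial malate dehydrogenase, was at 291, 256, 593 and 344 CPM, and Fh1, fumarase, the step after succinate dehydrogenase, at 95.3, 108, 71.6 and 77.3 CPM. Of 10 electron and nucleotide carriers 4 lay higher and 3 lower (median 0.03), shares set against 28.9% and 29.7% of all genes. Of 12 regulators of mitochondrial biogenesis 5 lay higher and 3 lower (median 0.07). Pprc1, a coactivator of the PGC-1 family, was at 31.0, 29.7, 110 and 78.2 CPM (1.64 ± 0.28, adjusted p = 0.122), and Ppargc1a, PGC-1 alpha, at 2.71, 3.0, 13.8 and 5.76 CPM. Nrf1 (28.4, 31.0, 26.5 and 29.4 CPM) and Gabpa (52.3, 58.1, 58.8 and 58.8 CPM), transcription factors that bind promoters of respiratory genes, hardly differed. No gene of these lists passed edgeR's test, which called 0.0% of all genes.

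**Figure D4:**
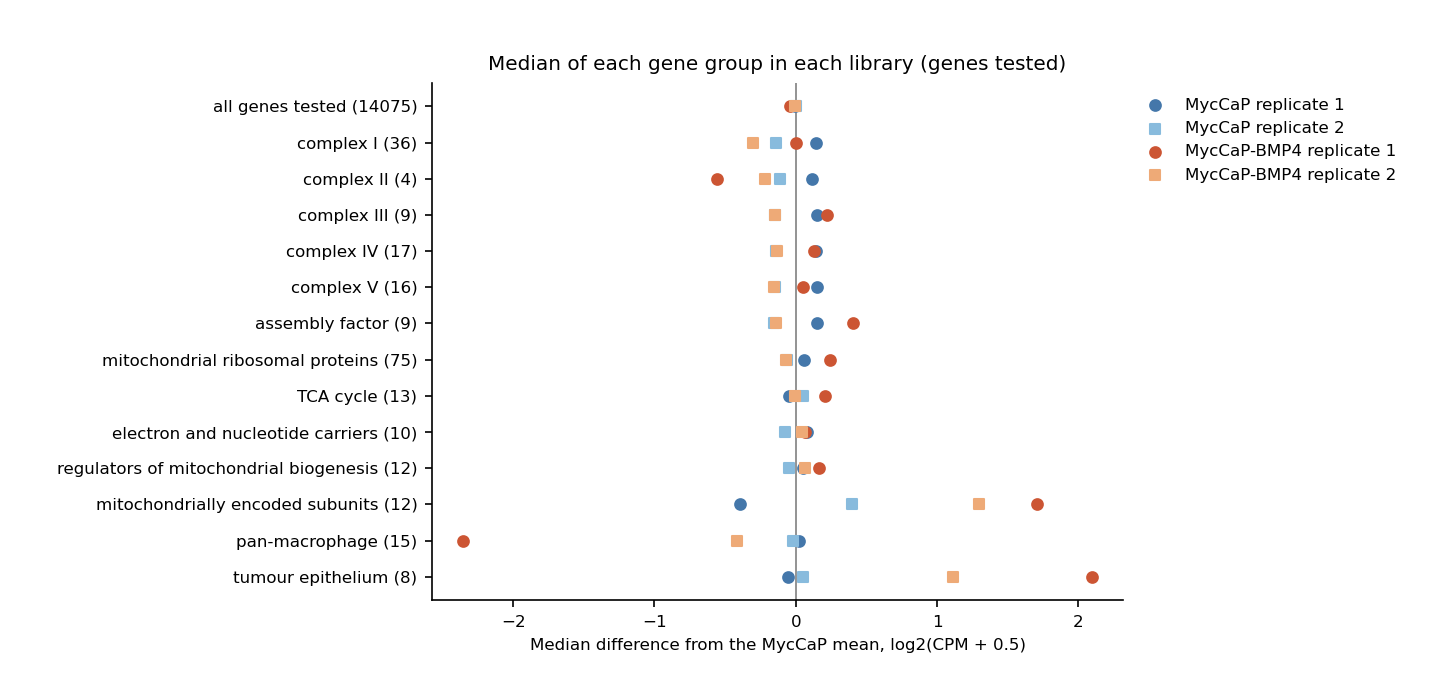
Median over the tested genes of each group of the difference from the MycCaP mean, in log2(CPM + 0.5), for each library, with the number of genes in brackets. The complexes lie between -0.56 and 0.22, near the median of all genes, with complex II the lowest, while the pan-macrophage genes reach -2.35 and the mitochondrially encoded subunits 1.71 in MycCaP-BMP4 replicate 1.

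Promoters are shown for 3 of the genes on which the results turn, so that the higher assembly factor Ndufaf4, the higher subunit Ndufb2 and Sdhb, the gene of complex II with the lowest fold change, can be set side by side. Each window runs from 250 bases before to 50 after the start site, from RefSeq on GRCm38.p6, 5′ to 3′ on the gene's strand, and capitals mark a motif found. The windows are chr4:24897833-24898132 (plus strand), chr6:39592315-39592614 (plus strand) and chr4:140961021-140961320 (plus strand).
Ndufaf4: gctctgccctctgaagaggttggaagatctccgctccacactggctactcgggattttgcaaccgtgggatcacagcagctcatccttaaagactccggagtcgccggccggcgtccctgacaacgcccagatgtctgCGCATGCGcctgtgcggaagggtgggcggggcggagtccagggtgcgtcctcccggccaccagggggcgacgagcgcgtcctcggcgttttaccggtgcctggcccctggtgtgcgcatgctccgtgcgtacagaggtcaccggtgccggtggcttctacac
Ndufb2: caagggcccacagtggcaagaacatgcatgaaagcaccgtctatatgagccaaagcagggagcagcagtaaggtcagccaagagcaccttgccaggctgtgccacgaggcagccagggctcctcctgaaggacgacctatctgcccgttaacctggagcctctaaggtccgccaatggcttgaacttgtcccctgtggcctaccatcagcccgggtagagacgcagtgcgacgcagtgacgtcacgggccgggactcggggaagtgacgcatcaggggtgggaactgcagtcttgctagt
Sdhb: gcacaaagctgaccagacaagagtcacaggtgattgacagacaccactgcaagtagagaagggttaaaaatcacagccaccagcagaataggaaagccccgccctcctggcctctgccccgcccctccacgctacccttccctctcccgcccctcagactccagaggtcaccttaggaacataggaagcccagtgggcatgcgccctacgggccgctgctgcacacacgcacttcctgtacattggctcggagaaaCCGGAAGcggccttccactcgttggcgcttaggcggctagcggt

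The motifs searched on both strands were CGCATGCG, the core of the NRF1 site, CCGGAAG, an ETS site that GABPA binds, AAGATGGC, a YY1 site, and, added after Ndufaf4 was seen to stand apart, CACGTG, the E-box bound by MYC and MAX. An ETS and a YY1 match can share the letters AAG. The NRF1 core starts at base 139 of the Ndufaf4 window, 112 bases before the start site, the ETS motif starts at base 257 of the Sdhb window, just after the start site, and none of these letters occur in the Ndufb2 window. Windows were at hand for 76 of the 94 genes, and Cox4i2 and Ndufa4l2 were not among them. The NRF1 core was in 11 of the 76 (14.5%), against 2.07% of the 27025 genes with a window, which were not limited to protein-coding genes. The ETS motif was in 18 (23.7%, against 9.93%), the YY1 motif in 11 (14.5%, against 3.19%) and the E-box in 6 (7.89%, against 8.09%).

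For the NRF1 core and the ETS motif, genes with and without the motif had medians near 0, and genes with the YY1 motif or the E-box had lower medians than those without. The 11 genes with the NRF1 core, Ndufaf4, Uqcrc1 and Cox6a1 among them, had a median of 0.07 against -0.07 for the 63 tested genes without it. For the ETS motif the medians were -0.10 and -0.06, for YY1 -0.34 (Ndufa9, Ndufb8, Ndufs4 and Ndufs7 among its 11) and -0.04, and for the E-box -0.26 and -0.05. A match is a description of the letters in the window, and these medians carry no test.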

How the data were processed

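The members and gene lists were chosen with earlier results of these data known. The authors deposited raw counts for each gene. The submitters' processing notes name HTSeq, STAR 2.6.0b, RSEM, Bowtie2 2.2.3 and the GRCm38 (mm10) build. Neither the annotation release nor the strand setting is given in the sources used here, and the 25 members with exons that overlap a gene on the other strand are therefore uncertain. Identifiers were given symbols and coordinates from a GRCm38 annotation (37607 of 39179). Of 105 symbols that met the rule, 11 not protein-coding were left out. Summary lines (3.37% to 6.03% outside genes, 8.01% to 10.6% not unique, 2.70% to 2.90% ambiguous) stayed out of library sizes.

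Samples were grouped by cell line. Counts were filtered with filterByExpr, scaled with TMM (0.916, 0.972, 1.14 and 0.988) and fitted across all 14075 genes with edgeR 4.0.16 in R 4.3.3 (quasi-likelihood F test, two-sided, Benjamini-Hochberg, no covariate, biological coefficient of variation 0.363). Library differences use log2(CPM + 0.5). Alternatives were DESeq2 1.42.0, limma-voom (limma 3.58.1), other scalings and filters, a replicate block and each library left out. Named genes were, by rule, catalytic subunits, paired isoforms, up to 4 genes per complex and direction with the smallest p, genes at the extremes of level and genes against the direction of their complex. Ndufa5, Ndufa6, Ndufa13, Ndufb8, Ndufs4 and Ndufaf6 were added after their values were seen. The values of 1 of the genes this rule names are not reported here, although it is counted in its group. Shared 36-base stretches were counted over principal transcripts, and 35 members had over 10% shared.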

Additional observations from a re-analysis of the deposited data

How the results depend on the processing

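Against 0 of all genes called in the reported fit, DESeq2's test called 1385, scaling on pan-macrophage genes 1004, no filter on low counts 1109, library size alone 65 and limma-voom, DESeq2's size factors and the filter of 1 CPM none. Of the 91 genes tested here, none were called in the reported fit, 2 by DESeq2 and 2 without the filter (Cox4i2 lower and Ndufaf4 higher in both). With each library left out in turn, calls ran from 0 to 5753 over all genes and from 0 to 12 over these genes, with values above 0 only when a MycCaP-BMP4 library was left out.

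The labels give both groups the replicate numbers 1 and 2 without saying that the numbers pair samples, and deviations of same-numbered libraries from their group means correlated with -0.148. With the replicate number as a block, 2 genes and 0 of these genes were called. With the pairing crossed, an alternative chosen after seeing the data, 689 genes and 1 of these genes were called.

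The median fold change of the subunits was 0.09 with library size alone and 1.63 on the pan-macrophage scale, where all genes had 0.14 and 1.58, and -0.25 to 0.05 with a library left out. Genes higher without overlap numbered 50 and lower 1 on the pan-macrophage scale, and 14 were lower with library size alone. Leaving out a library gave 11 to 40 higher and 26 to 50 lower. No share of all genes is given for these settings, so the counts do not set these genes apart. Relative to all genes, the median of complex IV ran from -0.18 to 0.19 and that of the assembly factors from -0.13 to 0.48 with a library left out, and complex II stayed lower, from -0.50 to -0.19. Relative to all genes, 6 changes of sign came with a setting: Atp5b at 0.001 with library size alone, Uqcrh at -0.021 without the filter, and on the pan-macrophage scale Atp5b at 0.086, Atp5c1 at 0.025, Ndufaf1 at 0.171 and Uqcrq at 0.011. With a library left out, the following genes changed sign, given as lowest to highest log2 fold change relative to all genes: Atp5b -0.152 to 0.152, Atp5c1 -0.148 to 0.078, Atp5g1 -0.059 to 0.647, Atp5g2 -0.124 to 0.498, Atp5h -0.863 to 0.010, Atp5l -0.823 to 0.229, Atp5mpl -0.731 to 0.046, Cox4i1 -0.079 to 0.255, Cox5a -0.617 to 0.071, Cox5b -0.339 to 0.055, Cox6a1 -0.182 to 0.351, Cox6b1 -0.635 to 0.091, Cox7a2 -0.034 to 0.317, Cox7a2l -0.257 to 0.572, Cox8a -0.019 to 0.336, Ndufa2 -0.938 to 0.097, Ndufaf1 -0.454 to 0.326, Ndufaf7 -0.124 to 0.782, Ndufaf8 -0.248 to 0.435, Ndufv1 -0.334 to 0.036, Uqcr10 -0.126 to 0.359, Uqcr11 -0.139 to 0.432, Uqcrc2 -0.051 to 0.263, Uqcrfs1 -0.094 to 0.275, Uqcrh -0.381 to 0.425 and Uqcrq -0.420 to 0.137. The cause was not tested. The remaining 704 comparisons of a named gene with an alternative kept their direction relative to all genes and their side of the threshold. The fold changes themselves could still change sign. With library size alone, Atp5a1 moved from -0.144 to 0.030, Cox5b from -0.148 to 0.026 and Ndufv1 from -0.164 to 0.022. A further 18 comparisons passed the threshold that had not, among them those of Cox4i2, Ndufaf4 and Ndufa4l2. Depth limits Cox6a2 and Cox6b2, which had 4 to 26 counts in a library.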
